A study of Mus musculus with 24 samples.

Results

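Exonic and transcription-end sites are MYT1L-bound regions whose midpoints lie away from promoters but on the transcribed or just-transcribed parts of protein-coding genes. They were taken from 4 lists of MYT1L sites in mouse cortex, 1 list for each of E18.5, P0, adult HET and adult WT animals. A site was a member when its midpoint lay over 1 kb from every transcription start in the GENCODE M21 annotation of mm10 and either in an exon of a protein-coding gene or between 100 bp before and 1 kb past the end of one of its transcripts. Only the midpoint counted, so a wide site could still reach across a start. The rule found 360 of 14477 sites in the E18.5 list, 1335 of 40698 at P0, 2000 of 56937 in adult HET and 1144 of 32145 in adult WT, or 4839 of 144257 in all.

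The sites came from CUT&RUN in mice labelled C57BL/6J, with 3 MYT1L and 3 IgG libraries in each of the 4 groups and 24 libraries in all. E18.5 and P0 animals were wild type for Myt1l, and 3-month-old adults were either HET, carrying on 1 allele the study's 7 bp frameshift deletion in Myt1l exon 6, or WT. According to the study's methods a truncated isoform that does not enter the nucleus was still made from the mutant allele, and sex was labelled unknown. For the strain, the methods state that the mutation was made in and bred to C57BL/6N. Tissue was labelled cortex at E18.5 but prefrontal cortex in the other groups, whereas the methods give prefrontal cortex throughout. The E18.5 and P0 libraries carry sequencing run 1 and both adult groups run 2, so age and run cannot be told apart between younger and adult lists. Each list is 1 merged set of positions with no height, score or value per library. There is therefore no replicate error, the depth is unknown, and every interval below covers counting error within a list only. A p-value compares 2 lists of sites and not 2 conditions.

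MYT1L is a zinc finger protein found in almost all neurons, where it is known mainly as a repressor of genes of other lineages and binds the core word AAAGTT. CUT&RUN cuts chromatin around an antibody-bound protein, so that short fragments mark where the protein sat. Exons and transcript ends are transcribed through by RNA polymerase, and the last exon usually carries the 3' UTR, which shapes mRNA stability and translation, followed by the flank in which transcription terminates.

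The sequences of the shortest sites in the recurrent loci show what these regions look like. They are given 5' to 3' on the strand of the gene, from the GRCm38 (mm10) genome, with AAAGTT or its reverse complement AACTTT in capitals. Sites that touch a UTR are not printed. The first 5 belong to loci bound in all 4 lists, of which 4 lie past a transcript end outside any GENCODE or RefSeq exon and 1, Fchsd2, begins with 49 coding bases and runs past the exon. At Ganc and Daam1 the end is that of a transcript that stops inside the gene.

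Hes7, adult HET site, chr11:69124333-69124455, plus strand: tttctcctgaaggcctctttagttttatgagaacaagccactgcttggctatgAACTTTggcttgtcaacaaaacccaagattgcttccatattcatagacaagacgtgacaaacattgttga
Ganc, adult HET site, chr2:120414378-120414453, plus strand: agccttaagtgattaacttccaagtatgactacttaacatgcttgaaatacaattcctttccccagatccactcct
Sncb, adult HET site, chr13:54758206-54758272, minus strand: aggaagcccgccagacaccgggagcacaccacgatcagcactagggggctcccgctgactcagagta
Daam1, adult HET site, chr12:71954302-71954455, plus strand: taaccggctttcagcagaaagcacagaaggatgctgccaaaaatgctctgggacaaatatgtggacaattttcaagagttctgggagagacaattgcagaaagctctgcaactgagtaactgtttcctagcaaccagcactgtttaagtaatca
Fchsd2, adult HET site, chr7:101191752-101191847, plus strand: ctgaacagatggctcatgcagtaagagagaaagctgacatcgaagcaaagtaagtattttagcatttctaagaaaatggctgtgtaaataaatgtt

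Only the Hes7 site among these 5 held the word, on the strand opposite the gene, 339 bp past a Hes7 transcript end as measured from the midpoint. The next 3 come from loci found in the 3 WT lists without adult HET (Fbxl22 and Atp6v1g3) and in both adult lists without the younger ones (Dlgap1). The 210 bases of the Fbxl22 site are all coding and 75.2% G or C, while the sites past the ends of Atp6v1g3 and Dlgap1 have 37.7% and 33.9% G or C.

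Fbxl22, adult WT site, chr9:66511704-66511913, minus strand: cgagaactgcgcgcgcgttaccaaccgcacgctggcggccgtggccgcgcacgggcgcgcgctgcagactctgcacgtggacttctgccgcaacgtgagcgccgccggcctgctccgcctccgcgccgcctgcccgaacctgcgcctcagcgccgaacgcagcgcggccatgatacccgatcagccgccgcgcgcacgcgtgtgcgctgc
Atp6v1g3, adult WT site, chr1:138290180-138290362, plus strand: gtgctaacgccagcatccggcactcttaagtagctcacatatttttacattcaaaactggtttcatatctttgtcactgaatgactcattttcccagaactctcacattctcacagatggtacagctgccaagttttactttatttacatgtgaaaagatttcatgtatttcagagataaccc
Dlgap1, adult HET site, chr17:70596187-70596378, plus strand: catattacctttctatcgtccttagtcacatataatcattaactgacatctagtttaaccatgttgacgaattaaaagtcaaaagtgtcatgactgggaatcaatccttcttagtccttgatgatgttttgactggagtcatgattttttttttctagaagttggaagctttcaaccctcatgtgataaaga

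A further 2 coding-exon sites that held the word and lay in loci of 2 lists were chosen after their values were seen. The Zfp277 locus was bound at E18.5 and P0 and the Intu locus at P0 and in adult WT. Intu encodes a planar cell polarity effector of cilia.

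Zfp277, P0 site, chr12:40378580-40378858, minus strand: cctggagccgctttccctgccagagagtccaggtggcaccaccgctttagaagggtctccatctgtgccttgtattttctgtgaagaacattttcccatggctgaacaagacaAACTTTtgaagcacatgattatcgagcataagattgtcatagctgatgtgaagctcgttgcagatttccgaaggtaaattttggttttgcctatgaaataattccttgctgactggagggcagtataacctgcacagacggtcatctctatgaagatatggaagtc
Intu, P0 site, chr3:40694167-40694347, plus strand: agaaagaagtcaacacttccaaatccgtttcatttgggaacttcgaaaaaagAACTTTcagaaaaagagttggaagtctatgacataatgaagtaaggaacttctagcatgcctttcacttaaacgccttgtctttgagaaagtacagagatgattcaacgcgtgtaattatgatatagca

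In both, the capitals fall inside the exon and read AACTTT on the gene's strand.

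Exonic and transcription-end sites made up a share of distal sites close to that of their territory among bases over 1 kb from a start, but only E18.5 matched it. Of sites over 1 kb from a start, members were 4.29% at E18.5 (95% CI 3.86 to 4.74, exact binomial), 4.9% at P0 (4.65 to 5.16), 3.76% in adult HET (3.6 to 3.93) and 4.03% in adult WT (3.81 to 4.27). The territory the rule covers, 107 Mb, is 4.3% of all bases over 1 kb from a start. Only the E18.5 interval held this value, with the P0 interval above it and both adult intervals below it. The P0 share was higher than the E18.5 share (odds ratio 1.15, 95% CI 1.02 to 1.3, adjusted p = 0.044, two-sided Fisher's exact test, Benjamini-Hochberg over 4 tests). The adult WT share was lower than the P0 share (odds ratio 0.816, 0.753 to 0.885, adjusted p = 3.5e-06, same exact test). Adult WT did not differ detectably from E18.5 (0.939, 0.832 to 1.06, adjusted p = 0.3), nor adult HET from adult WT (0.93, 0.864 to 1, adjusted p = 0.075) in the exact tests. The P0 difference from E18.5 did not pass the threshold with only exons of protein-coding transcripts counted (odds ratio 1.15, adjusted p = 0.075) or without sites under 150 bp (1.12, adjusted p = 0.15) in the same exact test. Adult WT was below E18.5 with sites over 500 bp from a start counted (0.851, adjusted p = 0.0083), and the ratio turned to 1.04 (adjusted p = 0.6) with repeat sites left out, both by the exact test.

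Expressed as density, members lay at 3.36 per Mb of the territory at E18.5, against 3.38 per Mb for other sites over 1 kb from a start in the remaining genome. The values were 12.5 against 10.9 per Mb at P0, 18.7 against 21.5 per Mb in adult HET and 10.7 against 11.4 per Mb in adult WT. The counting intervals of the 2 densities overlapped at E18.5 and met at 11.3 per Mb in adult WT. They were apart at P0, where members were denser than other sites, and in adult HET, where they were sparser. Repeats moved with this, since 19.1% of the territory was soft-masked as repeat against 37.2% of all bases over 1 kb from a start. Members with at least 50% of their bases masked were 1.11% at E18.5, 4.49% at P0, 13.4% in adult HET and 9% in adult WT, whereas other sites over 1 kb from a start had 1.24%, 5.9%, 29.8% and 17.6% in the same order. With these repeat sites left out, the odds ratio between adult HET and adult WT was 1.04 (adjusted p = 0.46, Fisher's exact test). Near the 1 kb limit itself, the first 250 bp inside held 29 members at E18.5, 103 at P0, 90 in adult HET and 64 in adult WT, and the last 250 bp outside held 35, 158, 96 and 52 sites of the same exonic or transcript-end kind.

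Within the territory, coding sequence held a smaller share of members than of bases. Coding bases made up 10.8% of member midpoints at E18.5 (39 of 360), 11.4% at P0, 11.7% in adult HET and 15.4% in adult WT, against 23.5% of the territory's bases. Coding sequence carried 1.55 sites per Mb at E18.5, 6.04 at P0, 9.26 in adult HET and 7 in adult WT. The 3' UTR held 29.4%, 30.6%, 35.5% and 29.5% of members in the 4 lists and 28.8% of the bases, with the interval of adult HET alone (33.4 to 37.6) lying above that share. Flanks past a transcript end and outside exons held 42.2% of members at E18.5, 40.7% at P0, 37.8% in adult HET and 38% in adult WT, against 36.1% of bases. Exons of non-coding transcripts of protein-coding genes held 14.4% to 16.2% of members and 11% of bases, and 5' UTRs held 0.7% to 1.67% and 0.63%. Coding windows of the territory had a median G and C content of 51.7%, against 43% in 3' UTRs and 44.4% past transcript ends, and the part of base composition in the coding deficit was not tested.

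**Figure D1:**
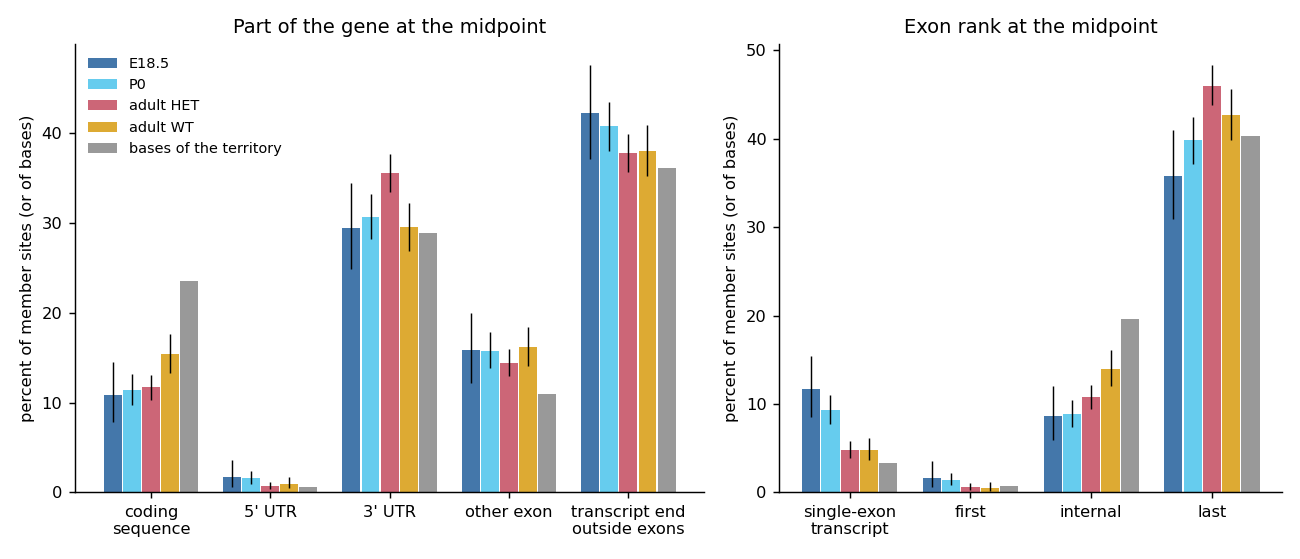
Percent of exonic and transcription-end sites in each list (coloured bars, with exact 95% binomial intervals) by part of the gene, left, and by exon rank, right, beside the percent of the territory's bases (grey). Coding sequence held 10.8% to 15.4% of sites against 23.5% of bases, and single-exon transcripts 11.7% of E18.5 sites against 3.33% of bases.

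Exon rank separated the younger from the adult lists. Transcripts with a single exon carried 42 of 360 members at E18.5 (11.7%, 8.54 to 15.4) and 124 of 1335 at P0 (9.29%, 7.78 to 11), against 4.8% in adult HET and 4.81% in adult WT, and 3.33% of the bases. Per Mb of such exons the densities were 11.8, 34.8, 27 and 15.4 sites, and over the whole territory 3.36, 12.5, 18.7 and 10.7. At E18.5 the hosts included Sox2, a factor of neural progenitors, Slitrk1, a synaptic adhesion protein, Rap2b, a small GTPase, and the linker histone genes Hist1h1c and Hist1h1d, of which Slitrk1 was named after its values were seen. At P0 Sox11, a factor of newborn neurons, had 4 such sites (1815 bp) and Pou3f2, a factor of upper-layer neurons, had 3 (1673 bp). Single-exon non-coding transcripts of protein-coding genes counted here too. They made up 19 of the 42 sites at E18.5, 69 of 124 at P0, 73 of 96 in adult HET and 42 of 55 in adult WT. Internal exons held 8.61%, 8.84%, 10.8% and 14% of members, against 19.6% of bases.

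Members at E18.5 and P0 were densest close to the 1 kb limit. Between 1 and 2 kb from the nearest start there were 4.88 sites per Mb at E18.5 (exact Poisson interval 3.92 to 6.01) and 17.4 at P0 (15.5 to 19.4), against 3.13 and 11.9 between 2 and 5 kb and 2.26 and 10.3 between 10 and 20 kb. Past 50 kb they stood at 4.42 (2.53 to 7.17) and 12.1 (8.83 to 16.3), on few sites. The adult lists showed no such slope, with 18.7 per Mb at 1 to 2 kb and 18.6 at 2 to 5 kb in adult HET, and 11.7 and 10.2 in adult WT. Transcript ends themselves were crossed with little change. Sites over 1 kb from a start lay at 4.11 per Mb in the first kb past the end of the longest protein-coding transcript at E18.5, against 3.15 in the last kb before it, and at 15.3 against 13.1 per Mb at P0, 19.7 against 18.8 in adult HET and 11.2 against 9.45 in adult WT. The intervals overlapped in each list. At P0 the density past the end was above the 10.5 per Mb (9.44 to 11.7) found 3 to 1 kb before it.

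**Figure D2:**
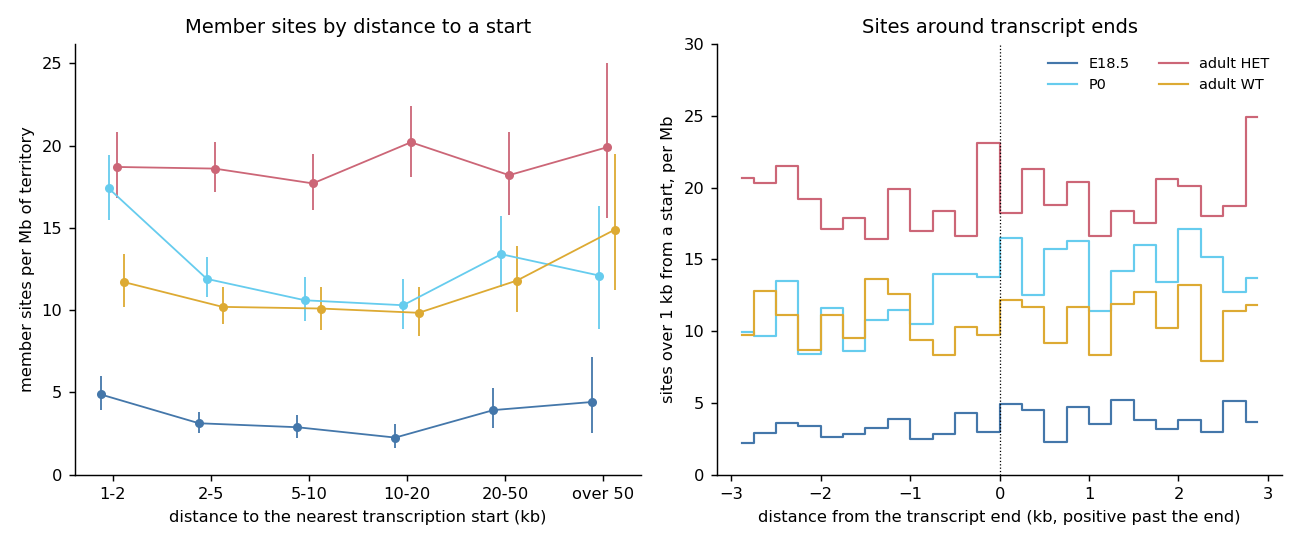
Left, exonic and transcription-end sites per Mb of territory by distance to the nearest transcription start (bars, exact 95% Poisson intervals). Right, sites over 1 kb from a start per Mb in 250 bp bins around the end of the longest protein-coding transcript of each gene. The younger lists were highest at 1 to 2 kb (4.88 at E18.5 and 17.4 at P0), and no list had a sharp step at the transcript end.

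In width, members resembled the other distal sites of their own list. Median widths were 566 bp at E18.5, 237 bp at P0, 106 bp in adult HET and 163 bp in adult WT, against 575, 253, 107 and 163 bp for other sites over 1 kb from a start. The widths set the lists far apart from each other, and 1691 of 2000 adult HET members were under 150 bp, against none at E18.5, 253 of 1335 at P0 and 479 of 1144 in adult WT. Median G and C content was higher in members than in other distal sites, at 42.8% against 40.8% at E18.5, 43.6% against 41.1% at P0, 39.2% against 37.6% in adult HET and 42.3% against 40.1% in adult WT. The territory as a whole had 45% and all bases over 1 kb from a start 41.4%. Exons that held a member were long, with medians of 2810.5, 2591.5, 2511 and 2195 bp in the 4 lists, against a length of 1884 bp at the median exonic base of the territory.

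No difference in recurrence between members and other distal sites passed the test. Of E18.5 members 88.3% (318 of 360) overlapped a P0 site by at least 1 bp, and of other E18.5 sites over 1 kb from a start 88.3% did (95% CI of the odds ratio 0.724 to 1.4, adjusted p = 1, two-sided Fisher's exact test, Benjamini-Hochberg over 8 tests). In the other direction 27.3% of P0 members and 29.9% of other P0 sites overlapped the E18.5 list (0.881, 0.779 to 0.996, adjusted p = 0.37, same exact test). Few members recurred between the young and the adult lists. An adult WT site overlapped 14.4% of E18.5 members and 6.07% of P0 members. Adult WT members overlapped an E18.5 site in 4.98% of cases (57 of 1144) and a P0 site in 7.26% (83 of 1144), against 4.28% and 6.44% of other adult WT sites, and neither difference passed the exact test (adjusted p = 0.54 for both). Between genotypes, 77 of 2000 adult HET members (3.85%) overlapped the adult WT list and 74 of 1144 adult WT members (6.47%) the adult HET list, against 4.24% and 7.66% of other sites (adjusted p = 0.62 and 0.54, exact test). The intervals allow odds ratios of 0.718 to 1.14 and 0.656 to 1.06.

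**Figure D3:**
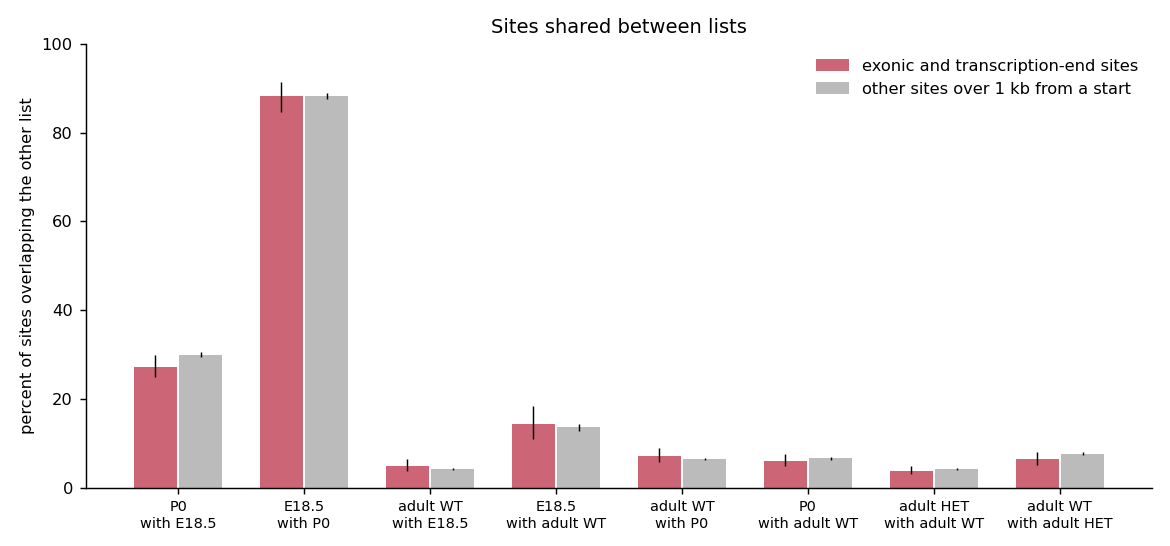
Percent of sites sharing 1 bp or more with a second list, for exonic and transcription-end sites (red) and for other sites over 1 kb from a start (grey), with exact 95% binomial intervals. The pairs of bars differ little, with 88.3% for both kinds of E18.5 site in the P0 list and 3.85% against 4.24% for adult HET sites in the adult WT list.

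Overlap followed site width in members as it did elsewhere. P0 members of 400 bp and over met the E18.5 list in 71.8% of cases (209 of 291), those of 150 to under 400 bp in 146 of 791 and those under 150 bp in 10 of 253 (3.95%). Other P0 sites of the same widths gave 72.1%, 18.9% and 4.28%. Adult HET members of 150 to under 400 bp met the adult WT list in 13.6% of cases against 2.01% of those under 150 bp. By part of the gene, E18.5 sites recurred at P0 in 94.7% of non-coding transcript exons (54 of 57), 89.7% of coding sequence (35 of 39), 88.8% past transcript ends (135 of 152) and 83% of 3' UTRs (88 of 106), with overlapping intervals.

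Merging members that share at least 1 bp gave 4306 loci. Of these, 1878 held sites of adult HET alone, 995 of adult WT alone, 918 of P0 alone and 38 of E18.5 alone, counting sites of any class. E18.5 and P0 together held 281, both adult lists 61 and all 4 lists 15, of which 12 had a member in every list. The same split was not computed for other distal sites. Their overlap with other lists did not differ detectably from that of members, at 4.24% against 3.85% for adult HET sites in the adult WT list.

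Of the 12 loci with members in all 4 lists, 7 lay in 3' UTRs, 4 past transcript ends and 1 in exons. One locus lay past the end of Hes7, a Notch-regulated bHLH repressor of the segmentation clock. The site there spanned 2454 bp at E18.5, 1795 bp at P0, 123 bp in adult HET and 337 bp in adult WT. The nearest start was 1192 bp from the E18.5 midpoint, which is within the E18.5 site, so at that age the site covered a start. This start was that of Aloxe3, the next gene on the same strand, which lies 1841 bp past the end of Hes7. The Hes7 gene overlaps the antisense gene model 9130213A22Rik. Past the end of a short Ganc transcript that stops inside the gene, the sites covered 1136, 1106, 473 and 662 bp. Ganc encodes an alpha-glucosidase. Near the end of Sncb, which encodes beta-synuclein, the sites covered 1055, 905, 67 and 300 bp. Daam1, a formin of Wnt and actin signalling, had 736, 527, 154 and 448 bp past a transcript end inside the gene. At each of these 4 loci the site was widest at E18.5, then at P0 and in adult WT, and narrowest in adult HET, which is also the order of the lists' median widths.

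In 3' UTRs, sites of all 4 lists met at the linker histone genes Hist1h1c (1038 bp at E18.5, 816 at P0, 144 in adult HET and 907 in adult WT) and Hist1h1d (752, 647, 297 and 379 bp). The site in Klf9, a hormone-induced Krüppel-like factor, covered 880, 883, 187 and 358 bp and lay 17597 bp or more from any start. Sema5a, a transmembrane axon guidance molecule, had 574, 608, 161 and 371 bp in its last exon, and Dnajb12, an endoplasmic reticulum co-chaperone, 883, 701, 138 and 297 bp. The Fchsd2 site, in a regulator of actin at endocytic sites, covered 1469, 1142, 96 and 224 bp. Its midpoint fell in an internal coding exon at P0 and in adult HET, and in the exon of a single-exon non-coding transcript at E18.5 and in adult WT.

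Loci with members in the 3 WT lists and no adult HET site of any class numbered 33. Most adult WT sites of any kind had no adult HET site, since 6.47% of adult WT members and 7.66% of other distal adult WT sites overlapped one. No matching count was made for other distal sites. Of the 33 loci, the one with most bound bases lay in Fbxl22, an F-box protein gene that overlaps Herc1, with 2268 bp at E18.5, 1074 at P0 and 210 in adult WT. Rap2b had 1529, 1046 and 536 bp in its single exon, at a locus that also belongs to B430305J03Rik, a gene overlapping Rap2b on the opposite strand. Atp6v1g3, a proton pump subunit, had 1427, 1134 and 183 bp past its end, and Slc35b4, a Golgi nucleotide-sugar transporter, 1451, 363 and 725 bp in its 3' UTR. Zeb2, a zinc finger repressor of neuronal development, had 1397, 927 and 272 bp in the exon of a non-coding transcript. By comparison 16 loci held members of E18.5, P0 and adult HET but not adult WT, and 34 those of E18.5, P0 and adult WT but not adult HET. The adult HET list had more sites but narrower ones, and what this count owes to width was not tested.

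Adult-only loci found in both genotypes numbered 57. A P0 site overlapped 7.26% of adult WT members and 6.44% of other distal adult WT sites. The adult-only loci with most bound bases were in the last exon of Brd9, a bromodomain chromatin protein, with 336 bp in adult HET and 789 bp in adult WT, and past an end of the postsynaptic scaffold gene Dlgap1, with 490 and 508 bp. Sh3bgrl2 had 427 and 536 bp, D1Ertd622e 245 and 499 bp, and Tpcn1, an endolysosomal cation channel gene, 281 and 443 bp. Loci of E18.5 and P0 without any adult site numbered 242. An adult WT site overlapped 14.4% of E18.5 members and 13.6% of other distal E18.5 sites, and neither the 57 nor the 242 has a matching count among other distal sites. The 242 loci were led by St8sia4, the enzyme that adds polysialic acid to NCAM, with 3839 bp at E18.5 and 1040 bp at P0. The E18.5 site ran across the start of St8sia4, which lay 1159 bp from the site's midpoint. Nfib, a nuclear factor I gene of cortical development, had 1567 and 2096 bp past ends of transcripts that stop inside the gene. Mef2c, a neuronal MADS-box factor, had 2186 and 1123 bp, also past transcript ends inside the gene. Itgb8, an integrin, had 1830 and 1590 bp, and Antxr2, an extracellular matrix receptor, 1893 and 1453 bp in its 3' UTR.

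By gene, 363 of the 21760 protein-coding genes with territory carried a member at E18.5 (1.67%), 1174 at P0 (5.4%), 1857 in adult HET (8.53%) and 1040 in adult WT (4.78%). These percentages are the background for the counts in gene lists below. Most genes had a single member, and 2, 35, 33 and 19 genes had 3 or more. Without sites under 150 bp the adult counts were 320 genes in HET and 609 in WT. Members in all 4 lists, not necessarily at the same position, were found in 26 genes, led by Zeb2, Mef2c, St8sia4, Hes7 and Ganc in bound length.

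Zeb2 had the most members of any gene at P0, with 10 sites (5192 bp, from 130 to 1557 bp each). Of these, 5 lay in exons of non-coding transcripts, 3 in 3' UTRs of its transcripts and 2 past a transcript end. Some of these transcripts stop inside the gene, and only 1 of the 3' UTR sites lay near the gene's own 3' end. Zeb2 had 2 sites of 3558 bp in all at E18.5, 1 of 121 bp in adult HET and 3 of 555 bp in adult WT. Mef2c had 2 sites (3462 bp) at E18.5, 4 (1974 bp) at P0, 1 (117 bp) in adult HET and 5 (2104 bp) in adult WT, where 4 lay in exons of non-coding transcripts. Nfib had 4 sites (2994 bp) at E18.5, 2 (2870 bp) at P0 and 1 (346 bp) in adult WT, and none in adult HET. Bound length was less in each adult list than at both early ages, except that Mef2c covered more in adult WT than at P0. These genes were named for leading the E18.5 or P0 list, so less adult length cannot be read as a trait of such factors. Median member widths were also lower in adults, at 106 bp in HET and 163 bp in WT, against 566 bp at E18.5 and 237 bp at P0. What bound length owes to width was not tested.

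Several of the other leading P0 and E18.5 genes also have known roles in cortical development. Id2, an inhibitor of bHLH factors, had 646 bp at E18.5 and held the widest P0 member (2174 bp, in its 3' UTR). Tcf4, a bHLH partner of proneural factors, had 2 sites (2634 bp) at E18.5, 4 (2205 bp) at P0 and 1 (166 bp) in adult WT. Efnb2, an ephrin ligand, had 2 sites (1284 bp) at E18.5 and 6 (2076 bp) at P0, and Ier5l 1 (1703 bp) and 5 (1553 bp). Both had 1 short site in adult HET, of 139 and 104 bp, and none in adult WT. Triqk had 1 site (1561 bp) at E18.5 and 4 (2544 bp) at P0. Neither Id2 nor Triqk had an adult member.

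The leading genes of the adult lists were mostly not those of the younger lists, with Mef2c as an exception in adult WT. In adult HET they were Speer4c (3 sites, 874 bp), of a family named for spermatogenesis, and Gm9758 (3 sites, 693 bp), next to Speer4e, then B430306N03Rik (3 sites, 625 bp), Rex2 (4 sites, 611 bp) and Ttn (5 sites, 603 bp), which encodes the giant muscle protein titin and whose 5 sites all lay in coding exons. Ttn has 119032 bp of territory, against 2770 bp for Speer4c. Fcho2, an endocytic adaptor, had 4 sites (564 bp) in adult HET and 1 (281 bp) in adult WT. Adult WT had 2 sites (1242 bp) in Speer4c, 3 (729 bp) in Rex2 and none in Gm9758, B430306N03Rik or Ttn. The adult WT leader was Mroh2a with 9 sites (2776 bp, 6 in coding sequence), followed in bound length by Mef2c (2104 bp, above) and then Hjurp, a centromere histone chaperone, with 7 sites (1914 bp). Mroh2a and Hjurp lie 182 bp apart on opposite strands, and 1 site was common to the pair. Adult HET had 3 sites (602 bp) in Mroh2a and 1 (139 bp) in Hjurp, and P0 had 1 of 170 bp in Mroh2a. The widest adult WT member, 1593 bp, lay past an end of A530032D15Rik, a gene that other gene models overlap, and Tmem267 had 3 sites (1471 bp). Speer genes have near-identical copies, and how reads shared between copies were placed is not given in the sources used here.

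Several groups of genes had unlike counts in the younger and the adult lists, which are described here without a test. Among 21 cortical layer factors, 6 carried a member at E18.5 (28.6%), 9 at P0 (42.9%), 3 in adult HET (14.3%) and 6 in adult WT (28.6%), all above the percentages for all genes. Their members lay at 44.8, 85.1, 13.4 and 44.8 per Mb, against 3.36, 12.5, 18.7 and 10.7 over all genes. Only the adult HET density was below that of all genes, but it rested on 3 sites and its interval (2.77 to 39.3) held the value of all genes. Besides Mef2c and Nfib the leading gene was Neurod6, a bHLH factor of excitatory neurons, with 1628 bp at E18.5, 1306 bp at P0 and 133 bp in adult WT. Of 19 Sox genes, 4 had a member at E18.5 (21.1%), 6 at P0 (31.6%), 2 in adult HET (10.5%) and 1 in adult WT (5.26%). Among them were Sox2 (856 bp at E18.5 and 835 bp at P0) and Sox4 (631 bp at E18.5 and 597 bp at P0). Of 16 Pou genes, 2, 6, 2 and 1 had one (12.5%, 37.5%, 12.5% and 6.25%). All genes had 1.67%, 5.4%, 8.53% and 4.78%, so the adult shares of both families were near that background. Pou3f2 and Pou3f3 stand in both the Pou and the layer lists. Sox2, Sox11 and Pou3f2 were also among the single-exon hosts above, and the part of gene structure in these counts was not tested.

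**Figure D4:**
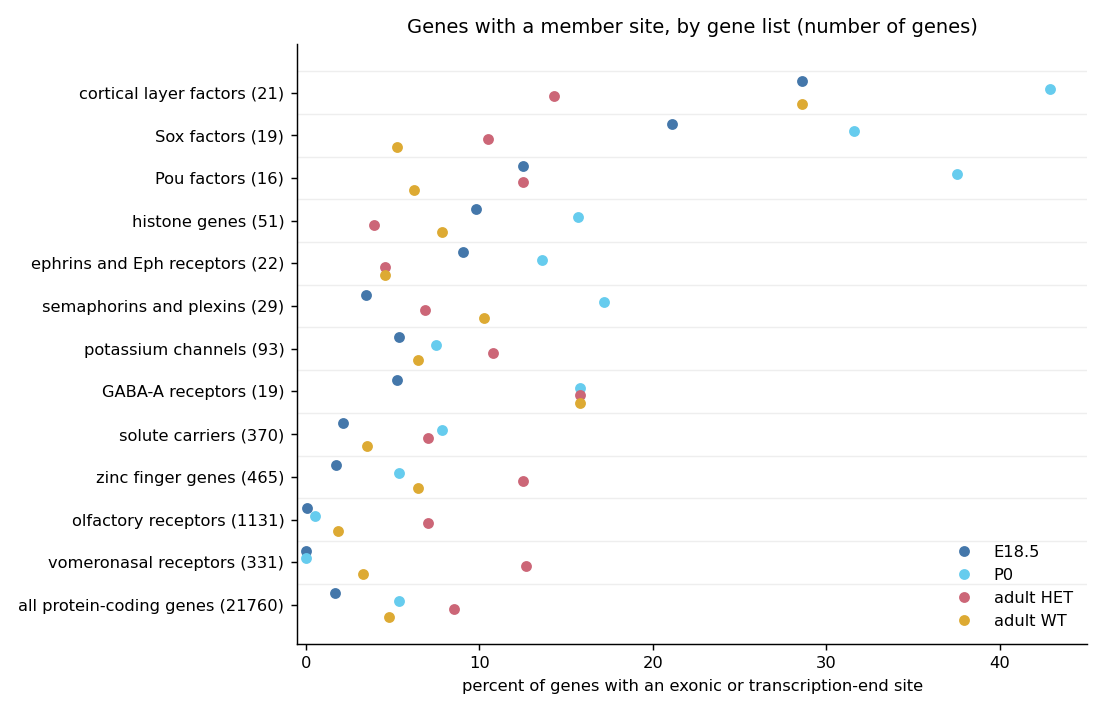
Percent of the genes in each list, with the number of genes in brackets, that carried an exonic or transcription-end site at E18.5, P0, in adult HET and in adult WT. Layer factors reached 42.9% at P0, and vomeronasal receptors 12.7% in adult HET with none in the younger lists, against 5.4% and 8.53% of all genes. In adult WT vomeronasal receptors had 3.32%, against 4.78% of all genes.

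Sensory receptor families had more members in the adult lists, but stood above all genes in density in adult HET only. Of all genes, 8.53% carried a member in adult HET and 4.78% in adult WT, at 18.7 and 10.7 per Mb. By share of genes, olfactory receptors were below all genes in every list. Of 1131 olfactory receptor genes, 1 carried a member at E18.5, 6 at P0, 80 in adult HET (7.07%) and 21 in adult WT (1.86%). Their density was 0.309, 1.85, 26.5 and 6.79 per Mb, which was below that of all genes in the younger lists and adult WT and above it in adult HET (interval 21.2 to 32.8). Of 331 vomeronasal receptor genes none had a member at E18.5 or P0, where a count of 0 allows up to 1.69 per Mb, against 42 in adult HET (12.7%) and 11 in adult WT (3.32%), or 27 and 6.76 per Mb. The 86 olfactory sites of adult HET had a median width of 99.5 bp and 33.5% G and C, 17 were at least 50% repeat and 2 overlapped an adult WT site. None of the 48 vomeronasal sites of adult HET overlapped the adult WT list. The median G and C content of all adult HET members was 39.2%, and the part of base composition and of near-identical gene copies in these counts was not tested. These receptors detect odours and pheromones in the nose.

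Counts in the remaining lists stand against 1.67%, 5.4%, 8.53% and 4.78% of all genes, at 3.36, 12.5, 18.7 and 10.7 per Mb, and were not tested. Histone genes had 5, 8, 2 and 4 of 51 genes with a member. On only 54.3 kb of territory this came to 110.6, 165.9, 36.9 and 73.7 sites per Mb. Apart from Hist1h1c and Hist1h1d the widest were in Hist1h1b (1233 bp at E18.5, 930 bp at P0 and 289 bp in adult WT). Zinc finger genes were at the background at E18.5 and P0 (1.72% and 5.38% of 465) and had 12.5% in adult HET and 6.45% in adult WT. Ephrins and Eph receptors had 11 P0 sites (71.9 per Mb, 35.9 to 128.6) but in 3 of 22 genes. Potassium channels had 5, 7, 10 and 6 of 93 genes, led by Kcnk12 (925 bp at E18.5, 595 bp at P0 and 171 bp in adult WT), and GABA-A receptor subunits 1, 3, 3 and 3 of 19. Glutamate receptors had a single gene in each list, Gria2 at E18.5 (880 bp) and P0 (4 sites, 1130 bp). Immediate early genes had 3, 3, 1 and 2 of 22 genes. Homer1, a postsynaptic scaffold, had 2 sites of 900 bp in adult WT and no member in the other lists. Notch pathway genes, a list without Hes7, had 0, 1, 2 and 1 of 24. Solute carriers had 8, 29, 26 and 13 of 370 genes, led by Slc35b4, collagens 2, 6, 7 and 4 of 45, keratins 0, 1, 4 and 2 of 109 and ribosomal proteins 0, 3, 1 and 1 of 80. Calcium and sodium channels had 2, 2, 6 and 6 of 40, synaptotagmins 1, 0, 3 and 2 of 17, and semaphorins and plexins 1, 5, 2 and 3 of 29, led by Sema5a. Wnt and Frizzled genes had 1, 3, 2 and 2 of 29, led by the receptor gene Fzd2 (534 bp at E18.5 and 707 bp at P0), and Fox factors 0, 1, 2 and 2 of 44. No Hox, Irx or Lhx gene carried a member in any list, where a count of 0 allows up to 39.5 per Mb for Hox and 55.7 for Irx and Lhx genes. Clustered protocadherins counted as 21 genes at E18.5, 21 at P0, 35 in adult HET and none in adult WT, but these rest on 1, 1 and 2 sites in 3' exons that the genes of a cluster share. Of the MYT family, Myt1l and Myt1 had no member, and St18 had 217 bp at P0 and 100 bp in adult HET.

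The MYT1L word was somewhat more frequent at members than along exons and transcript ends at large, and its share was below that at other distal sites by differences that did not pass the test. AAAGTT on either strand lay within 75 bp of the midpoint of 16.7% of members at E18.5 (60 of 360, 95% CI 13 to 20.9), 15.2% at P0 (13.3 to 17.2), 13.8% in adult HET (12.4 to 15.4) and 13.6% in adult WT (11.7 to 15.8). Of all 632321 consecutive windows of that length in the territory 10.9% held it. Other sites over 1 kb from a start had 19.2%, 16.5%, 14.8% and 14.4%, which was higher than members in each list but did not pass the test (odds ratios 0.844, 0.91, 0.925 and 0.938, adjusted p = 0.36, 0.36, 0.36 and 0.49, two-sided Fisher's exact test, Benjamini-Hochberg over 4). The E18.5 interval of the odds ratio was 0.636 to 1.12.

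**Figure D5:**
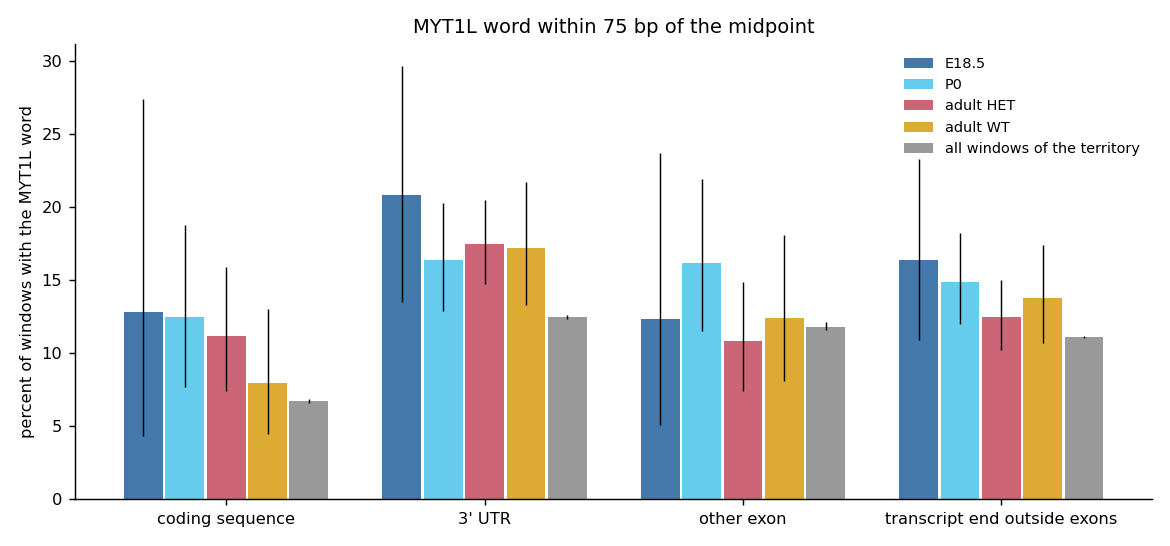
Percent of windows reaching 75 bp to each side of the midpoints of exonic and transcription-end sites that held the MYT1L word on either strand, by part of the gene and list (coloured bars, exact 95% binomial intervals), beside all windows of the same part of the territory (grey). In 3' UTRs 16.4% to 20.8% of sites held it against 12.5% of windows, and in coding sequence 7.95% to 12.8% against 6.72%. Windows were not matched to sites in G and C content.

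In 3' UTRs the word was found at 20.8%, 16.4%, 17.5% and 17.2% of members in the 4 lists, against 12.5% of windows, and the 4 intervals lay above that share. Median G and C content there was 42.7%, 43%, 37.1% and 39.7% in the 4 lists, against 43% of windows, so the adult sites were not of like composition. In coding sequence it was found at 12.8%, 12.5%, 11.2% and 7.95% against 6.72% of windows, with the intervals of P0 (7.7 to 18.8) and adult HET (7.42 to 15.9) above it. Past transcript ends it was at 16.4%, 14.9%, 12.5% and 13.8% against 11.1%. The word is poor in G and C, and base composition moved with its share. Among P0 members with 40% to under 45% G and C in the window, 19.7% (14.9 to 25.2) held the word against 11.8% of territory windows of that content, and under 35% G and C 30.5% (57 of 187) against 21.7%. At 50% to under 55% and at 55% and over, P0 had 8.67% against 4.95% and 5.81% against 2.13%, of which the first interval (4.93 to 13.9) just held the territory share. In the other 2 bins P0 members did not stand apart, with 18% (13.6 to 23.2) against 15.8% at 35% to under 40% and 8.33% (5.41 to 12.1) against 8.08% at 45% to under 50%. In adult HET and in adult WT the intervals of all 6 bins held the shares of the territory windows. At E18.5 those of 5 bins did, with 16.2% (8.95 to 26.2) against 8.08% at 45% to under 50% as the exception. In adult HET 31.8% of members were in the bin under 35% against 14% at P0. The word was mostly in 1 orientation at the younger coding sites. On the gene's strand it read AAAGTT at 0 of 5 occurrences at E18.5 and 3 of 19 at P0 (15.8%, 3.38 to 39.6), against 48.3% in coding windows of the territory (3746 on the gene's strand and 4012 on the other). The E18.5 interval, 0 to 52.2%, held that share. It did so at 13 of 26 in adult HET and 5 of 14 in adult WT, and in 3' UTRs at 36 of 77 at P0. The E18.5 and P0 coding sites overlap in part and are not independent, and this count was noticed in the data.

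The other words, each searched on both strands in the same windows, were described without a test. TTGGCA, part of the nuclear factor I site, was found at 13.9% of E18.5 members and 12.7% of P0 members, against 7.5% in adult HET, 9.88% in adult WT and 8.08% of territory windows. Other distal sites had 18.7%, 14.9%, 7.75% and 10% in the same order of lists. The E-box CAGATG was at 17.8%, 14.7%, 12.6% and 16.1% of members and 11.8% of windows. The polyadenylation signal AATAAA, a landmark of transcript ends, was at 21.4%, 17.7%, 26.1% and 21.6% of members, against 19.4% of windows and 21.1%, 20.6%, 27% and 22.1% of other distal sites. The early growth response word GTGGGC was at 5%, 5.02%, 4.8% and 8.22% of members and 6.99% of windows. The AP-1 word TGACTC lay at 6.11% to 8.92% of members, against 7.75% of windows. TGACGT, of the cAMP response element, lay at 1.49% to 3.06% against 1.69%, and the E-box CACGTG at 1.15% to 2.78% against 1.97%.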

How the data were processed

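CUT&RUN was performed by the authors with an antibody to MYT1L and with control IgG, and reads were processed with the nf-core/cutandrun pipeline on mm10. For the aligner, peak caller, threshold and use of IgG, details were not given in the sources used here. Deposited files held positions in bp, 1 merged list of sites per MYT1L group, without heights. IgG libraries are not analysed here, and some adult titles with Myt2l or Myt3l were taken as MYT1L from their descriptions. Depth per library is unknown, and intervals cover counting error only.

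Midpoints were placed in GENCODE M21 exons and ends (Python 3.11.15, numpy 2.4.6, scipy 1.17.1, pandas 2.3.3, matplotlib 3.10.9), with sequence from GRCm38. Shares had exact Clopper-Pearson intervals and densities exact Poisson intervals. Two-sided Fisher's exact tests with Benjamini-Hochberg adjustment compared lists, or members with other sites over 1 kb from a start, at a threshold of 0.05. The scripts were tested on simulated data.

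Named loci were the 10 with most bp among those bound in all 4 lists and the 5 with most bp in each other set. Named genes were the 5 with most bp and the 3 with most sites per list, and up to 3 per gene list, from which the text takes a part, since not all are described and 1 is not reported here. The 26 gene lists went by symbol. Members and lists were chosen with earlier results of these data known. Alternatives changed the exons, distance, placement, repeats, width, overlap and window.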

Additional observations from a re-analysis of the deposited data

How the results depend on the processing

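No paired analysis was possible because each group is 1 merged list, so no library could be left out or blocked. Of 113 alternatives, 87 odds ratios and 6 gene counts kept their direction and side of the threshold or stayed within range, and the lowest adjusted p for sharing or AAAGTT was 0.08 (Fisher's exact test). The P0 share of members against E18.5 had an odds ratio of 1.15 (exact test, adjusted p = 0.075) with exons of protein-coding transcripts and 1.12 (0.15) without sites under 150 bp. Adult WT against E18.5 had 0.851 (0.0083) at over 500 bp from a start. Without repeat sites, adult WT against E18.5 and adult HET against adult WT turned to 1.04 (0.6) and 1.04 (0.46). Overlap of E18.5 members with P0 turned to 0.964 with at least 50% of bases shared, 1 with midpoints within 250 bp, 0.994 without sites under 150 bp, 0.911 over 2 kb from a start and 0.915 at 150 to under 400 bp, and with adult WT to 0.972, 0.979 and 0.873 at the first, second and last of these. Adult WT sites under 150 bp had 0.807 with E18.5 and 0.923 with P0, and P0 sites of 400 bp and over 1.3 with adult WT. AAAGTT at E18.5 turned to 1.05 within 250 bp and 1.02 over whole sites. Genes with a member numbered 320 in adult HET and 609 in adult WT without sites under 150 bp, where fewer sites were counted. The cause of the other shifts was not tested. E18.5 had no member under 150 bp and adult HET 1 of 400 bp and over, so these could not be fitted. Unknown depth limits every comparison of counts between lists.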
